A study of Mus musculus with 12 samples.

Results

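Brachyury (*T/Bra*), *Sox2*, *Nkx1-2*, *Sp5* and *Sp8* are 5 transcription factor genes of the tail bud, chosen by name from the 38911 genes of the count tables. All 5 passed the filter on low counts that left 16966 genes for testing. They were measured in gastruloids, which are aggregates of embryonic stem (ES) cells, here started from 200 cells of the mouse line E14TG2a that had been kept in 2i and LIF. Each group holds 3 libraries of polyA RNA from day 4, grown from ES cells at passage 13, 15 or 16, 1 per passage. The groups were 0× glucose (no glucose), 1× glucose (21.25 mM), 3× glucose (63.75 mM) and 2-DG, which is 5 mM 2-deoxy-D-glucose, a glucose analog that inhibits hexokinase, in 1× glucose. The treatments were given for 1 day, from day 3. By the paper's protocol, all gastruloids received a Wnt agonist to induce mesoderm on the day before these treatments. Each library is RNA of many whole gastruloids of a single ES cell line, so fewer cells with a transcript and less transcript per cell cannot be told apart.

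The tail bud is the growth zone at the posterior end of the embryo, and it contains neuromesodermal progenitors, cells that can form both spinal cord and paraxial mesoderm. These progenitors are recognised by having *T/Bra* and *Sox2* at the same time. *T/Bra* encodes the T-box factor that marks the primitive streak and nascent mesoderm, and *Sox2* encodes an HMG-box factor of pluripotent and neural cells. *Nkx1-2* encodes a homeobox factor of the caudal epiblast beside the node. *Sp5* and *Sp8* encode related zinc-finger factors, and *Sp5* is a well known target of Wnt/β-catenin signaling, which acts on DNA through TCF/LEF factors.

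The libraries held 31902471 to 45956080 counts, with a median of 35638001. A member had between 1154 counts (*Sox2*, 0× glucose, passage 16) and 14671 counts (*T/Bra*, 1× glucose, passage 13) in a library. *T/Bra*, *Sox2*, *Nkx1-2* and *Sp5* were each listed as 1 RefSeq transcript and *Sp8* as 9, of which the most abundant overall took 25.8% to 57.1% of the gene's counts in a library. On GRCm38.p6 *T/Bra* lies at chr17:8434423-8442496, *Sox2* at chr3:34649995-34652461, *Sp5* at chr2:70474923-70477726 and *Sp8* at chr12:118846288-118852578, all on the plus strand, and *Nkx1-2* lies at chr7:132596239-132599637 on the minus strand. A predicted gene, LOC115486424, overlaps the first bases of *T/Bra* and had 163 to 853 counts, and the long noncoding RNA gene *Sox2ot* spans *Sox2* and had 12 to 83 counts.

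The members differ in the sequence before their start sites. The 250 bases before the annotated start are shown for the pair that defines the progenitors and for the members with the most and the fewest matches to the TCF/LEF motifs CTTTGA and CTTTGT. They were read from RefSeq on GRCm38.p6, run 5′ to 3′ on the strand of the gene and belong to the reference strain rather than to E14TG2a. Capitals mark matches, on either strand, to these motifs or to the CDX motif TTTATG.
*Sp5* (chr2:70474673-70474922, plus strand): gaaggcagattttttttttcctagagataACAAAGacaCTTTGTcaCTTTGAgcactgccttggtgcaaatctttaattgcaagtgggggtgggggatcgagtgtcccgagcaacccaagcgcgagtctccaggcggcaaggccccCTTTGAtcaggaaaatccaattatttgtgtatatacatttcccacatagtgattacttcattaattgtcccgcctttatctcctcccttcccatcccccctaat
*T/Bra* (chr17:8434173-8434422, plus strand): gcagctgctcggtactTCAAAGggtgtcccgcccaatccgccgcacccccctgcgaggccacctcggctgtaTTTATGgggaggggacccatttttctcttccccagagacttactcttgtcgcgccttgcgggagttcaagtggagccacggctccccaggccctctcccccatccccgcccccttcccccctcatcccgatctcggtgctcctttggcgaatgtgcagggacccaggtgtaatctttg
*Sox2* (chr3:34649745-34649994, plus strand): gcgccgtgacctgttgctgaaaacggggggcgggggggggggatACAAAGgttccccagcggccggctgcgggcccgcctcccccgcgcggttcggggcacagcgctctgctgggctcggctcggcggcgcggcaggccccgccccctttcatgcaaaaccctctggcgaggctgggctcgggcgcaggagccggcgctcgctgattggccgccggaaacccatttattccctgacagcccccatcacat
*Nkx1-2* (chr7:132599638-132599887, minus strand): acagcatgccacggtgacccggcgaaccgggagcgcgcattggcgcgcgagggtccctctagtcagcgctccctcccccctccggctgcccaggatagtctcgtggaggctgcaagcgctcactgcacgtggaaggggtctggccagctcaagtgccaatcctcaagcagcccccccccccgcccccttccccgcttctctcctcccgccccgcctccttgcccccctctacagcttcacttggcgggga

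The *Sp5* window holds 4 TCF/LEF matches, 2 of each motif, between 221 and 99 bases before the start, and none of them overlap. Of 32851 windows of this length in the reference table, 27.6% hold a TCF/LEF match and 31 (0.0944%) hold at least 4. The *T/Bra* window holds 1 CTTTGA match, read as TCAAAG, 234 to 229 bases before the start, and 1 CDX match, a motif found in 10.8% of the windows. The *Sox2* window holds 1 CTTTGT match, read as ACAAAG. The *Nkx1-2* window holds none of the motifs searched. *Sp8* has 3 annotated starts, of which 1 has a CTTTGA match and 1 a CDX match. The T-box site AGGTGTG, present in 5.1% of all windows, was in none of the members' windows. These matches describe letters only.

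Levels are given as CPM, counts scaled to a common library size with the TMM factors of edgeR. Per kilobase of merged exons in the GENCODE M21 annotation, *T/Bra* was the most abundant member in 1× glucose, with 97.2 ± 36.6 CPM per kilobase (SD, n = 3). *Sp5* followed with 49.5 ± 10.5, *Nkx1-2* with 41.3 ± 27.4, *Sox2* with 33.3 ± 21.8 and *Sp8* with 16.9 ± 8.38 CPM per kilobase (SD, n = 3 each). *Sp5*, *Nkx1-2* and *Sox2* lay within their spread of each other. The counts are of RefSeq transcripts, so these lengths may not match them. *Sox2* has 2057 bases of exon in GENCODE and spans 2467 bases in RefSeq. In 2-DG the order on this scale was led by *Sox2* with 47.8 ± 24.6 CPM per kilobase, then *Sp5* with 36.8 ± 14.6 and *T/Bra* with 32.8 ± 7.56 (SD, n = 3 each), which also lay within their spread.

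**Figure D1:**
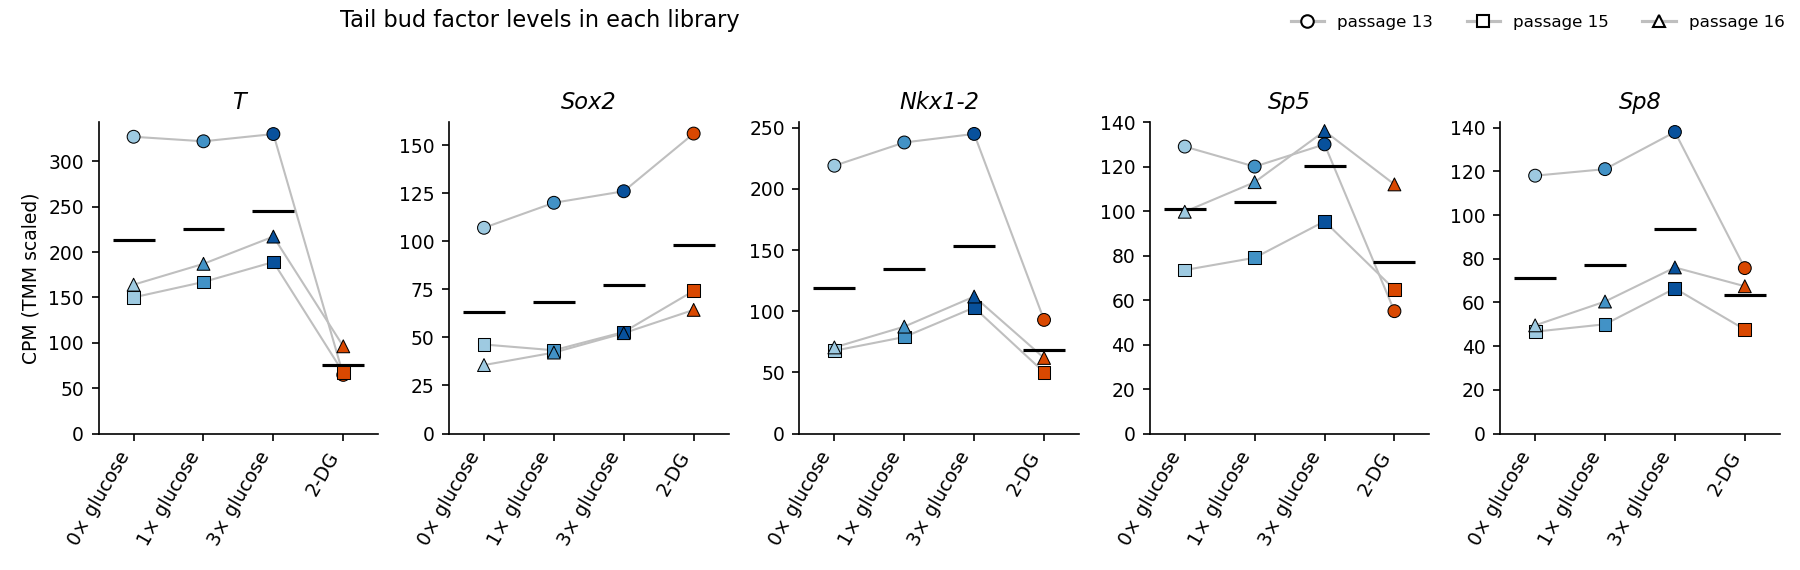
Level of each member (TMM-scaled CPM, linear axis from 0) in the 12 libraries, with 1 symbol per library, grey lines joining the libraries of 1 passage and black bars for the mean of 3. The 3 *T/Bra* values in 2-DG lie between 64.6 and 96.1 CPM, below all 9 values of the glucose groups, whereas for *Sox2*, *Nkx1-2* and *Sp8* the libraries of passage 13 stand above the others within each group.

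To ask how 2-DG changed the members at the same glucose concentration, 2-DG was compared with 1× glucose. *T/Bra* fell 2.97-fold and was the only 1 of the 5 members to pass the test, with 17.6% of all genes passing, 8.51% lower and 9.12% higher. Its level in 1× glucose was 322, 167 and 187 CPM in passages 13, 15 and 16, and in 2-DG it was 64.6, 67.1 and 96.1 CPM. All 3 libraries of 2-DG lay below all 3 of 1× glucose, a separation whose share over all genes was not taken. They differed less from each other than the 1× glucose libraries did. The log2 fold change was −1.57 (standard error 0.36, 95% interval −2.36 to −0.78, adjusted p = 0.0136, edgeR's quasi-likelihood test). The call was lost when 2-DG replicate 1 (adjusted p = 0.0535) or 2-DG replicate 2 (adjusted p = 0.0577) was left out, and the adjusted p ranged from 4.15e-06 to 0.0577 over 15 alternatives. With each gene represented by its most abundant transcript alone, *T/Bra* kept its value, as it has a single transcript, but its adjusted p was 0.0554. Without the libraries of passage 13 it was at −1.11 (adjusted p = 0.00278). Counts of LOC115486424, at the 5′ end of *T/Bra*, were 163 to 274 in 2-DG and 424 to 853 in 1× glucose, and whether reads were shared with *T/Bra* was not tested.

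*Sox2* was higher in 2-DG within each passage, as 32.2% of all genes were, but the spread between passages was larger than that difference. It had 120, 43.3 and 42.1 CPM in 1× glucose in passages 13, 15 and 16, and 156, 74.2 and 64.3 CPM in 2-DG. The groups overlapped because passage 13 was high in both. The log2 fold change was 0.52 (standard error 0.57, 95% interval −0.74 to 1.78, adjusted p = 0.595). It was 0.01 when 2-DG replicate 1 was left out and 1.20 when 1× glucose replicate 1 was. This fit does not pair the libraries, so each of these left passage 13 on 1 side of the comparison. Within passages 13, 15 and 16 the log2 difference was 0.38, 0.78 and 0.61. When the passage entered the fit as a block, so that libraries of 1 passage are compared with each other, *Sox2* was called higher at 0.58 (adjusted p = 0.000181). With the block 3 of the 5 members and 41.3% of all genes were called. Without the libraries of passage 13, *Sox2* was also called, at 0.70 (adjusted p = 0.00585), an alternative chosen after seeing the data.

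*Nkx1-2*, the caudal epiblast homeobox gene, was lower in 2-DG in 3 of 3 passages, as 30.7% of all genes were. Its level was 238, 78.9 and 87.4 CPM in 1× glucose and 92.9, 50.1 and 61.8 CPM in 2-DG. The 2-DG library of passage 13 lay above the 1× glucose libraries of passages 15 and 16. At −0.98 on the log2 scale this did not exceed the spread of the libraries (standard error 0.57, 95% interval −2.24 to 0.28, adjusted p = 0.273). It was −0.29 without 1× glucose replicate 1, in the same unpaired fit, where 1× glucose then had no library of passage 13. With the passage as a block *Nkx1-2* was called lower at −0.84 (adjusted p = 0.00147).

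The zinc-finger genes *Sp5* and *Sp8* did not pass the test with or without the block. *Sp5* had 120, 79 and 113 CPM in 1× glucose and 55, 64.8 and 112 CPM in 2-DG. Its 2-DG libraries of passages 13 and 15 lay below the 1× glucose group and that of passage 16 lay inside it. The log2 fold change was −0.43 (standard error 0.28, 95% interval −1.06 to 0.20, adjusted p = 0.345, and 0.101 with the block), and leaving out 2-DG replicate 3 moved it to −0.80. *Sp8* had 121, 50 and 60.4 CPM in 1× glucose and 75.7, 47.6 and 67.4 CPM in 2-DG, so that the groups overlapped. Its log2 fold change was −0.28 (standard error 0.44, 95% interval −1.24 to 0.69, adjusted p = 0.724, and 0.357 with the block). It turned to 0.20 without 1× glucose replicate 1, in the fit without the block, where 1× glucose then had no library of passage 13. These intervals, from the fit without the block, leave room for a fall of more than 2-fold in *Sp5* and *Sp8*. With the block the log2 fold change was −0.43 for *Sp5* (standard error 0.19) and −0.18 for *Sp8* (standard error 0.15), and no interval was taken.

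**Figure D2:**
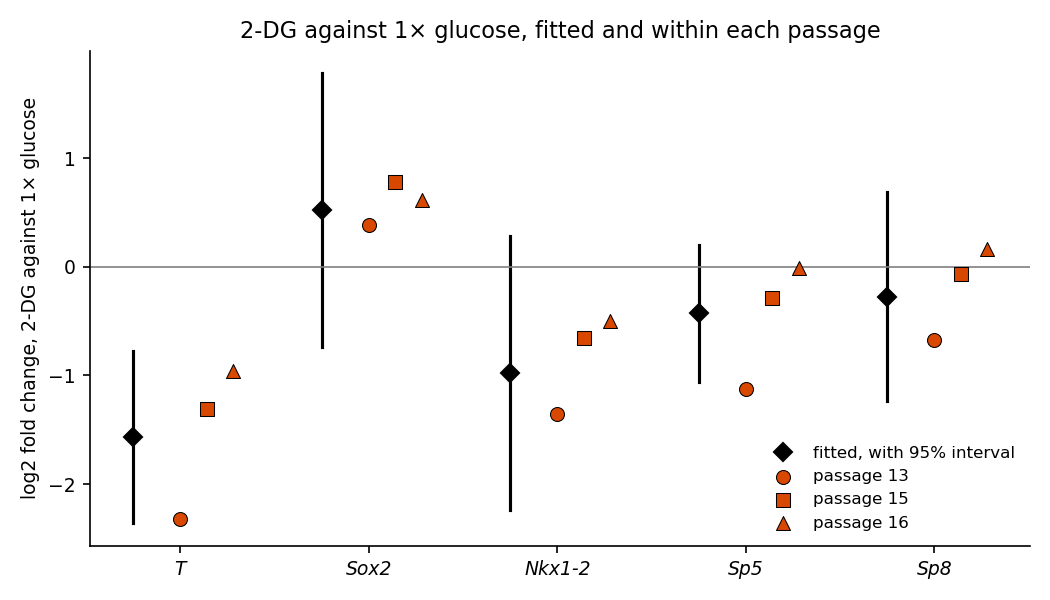
Log2 fold change of each member between 2-DG and 1× glucose, as fitted over all libraries (diamond, bar for the 95% interval) and within each passage (coloured symbols). The interval of *T/Bra*, −2.36 to −0.78, is the only 1 of the 5 that does not include 0, and for *T/Bra*, *Nkx1-2*, *Sp5* and *Sp8* the value of passage 13 is the lowest.

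The 2-DG libraries of the 3 passages differed from their glucose libraries by different amounts. For *T/Bra* the log2 difference from 1× glucose was −2.32 in passage 13, −1.31 in passage 15 and −0.96 in passage 16. Relative to the mean of its 3 glucose groups, *T/Bra* was 5.06-fold lower in passage 13, 2.5-fold lower in passage 15 and 1.96-fold lower in passage 16. A test of 2-DG against the 3 glucose groups for a difference between passages, chosen after seeing the data, called 1.88% of all genes, and *T/Bra*, *Sp5* and *Sp8* were among them. As 2-DG has 1 library per passage, the spread in this test came from the 9 glucose libraries alone, and each 2-DG library was assumed to vary as they did. The test has 2 degrees of freedom, and its adjusted p covers any difference between the 3 passages. The value printed beside it is the 2-DG effect in passage 13 minus its mean in passages 15 and 16, which has no p of its own. This value was −1.19 (log2) for *T/Bra* (standard error 0.11, adjusted p = 0.00217 for the test between passages). It was −1.01 for *Sp5* (standard error 0.12, adjusted p = 0.0071) and −0.71 for *Sp8* (standard error 0.11, adjusted p = 0.0197).

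*Sp5* in passage 13 was 2.3-fold lower in 2-DG than in the glucose groups, with 55 CPM against 120 to 130, and in passage 16 it had 112 CPM against 99.7 to 136. *Sp8* in passage 13 was 1.65-fold lower, with 75.7 CPM against 118 to 138, and in passage 16 its 67.4 CPM lay inside the 49.5 to 76 CPM of the glucose groups. The effect in passage 13 minus the mean of the others was −0.72 for *Nkx1-2* (standard error 0.14) and −0.20 for *Sox2* (standard error 0.11). Their adjusted p in the test between passages was 0.0694 and 0.627. *Sp8* missed the threshold when 1× glucose replicate 1 (adjusted p = 0.061) or replicate 2 (adjusted p = 0.0505) was left out, and *Nkx1-2* passed it at 0.00181 without 3× glucose replicate 1. A difference between passages and the scatter of single 2-DG libraries cannot be told apart.

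2-DG was also compared with 0× glucose, which asks whether the drug and the absence of glucose differ. *T/Bra* had 327, 150 and 164 CPM in 0× glucose, all above the 2-DG libraries, and was 2.81-fold lower in 2-DG (log2 fold change −1.49, standard error 0.36, adjusted p = 0.0156). It was again the only 1 of the 5 members called, against 18.9% of all genes, 9.04% lower and 9.86% higher. Leaving out 2-DG replicate 1 (adjusted p = 0.0621) or 2-DG replicate 2 (adjusted p = 0.0615) ended this call. *Sox2* was at 0.64 (standard error 0.57, adjusted p = 0.485) and was called with the block at 0.69 (adjusted p = 6.15e-05). *Nkx1-2* was at −0.80 (adjusted p = 0.366) and was called with the block at −0.63 (adjusted p = 0.00742), where 43.1% of all genes were. *Sp5* was at −0.38 (adjusted p = 0.393) and *Sp8* at −0.16 (adjusted p = 0.837), and neither was called with the block (adjusted p = 0.14 and 0.804). Both comparisons use the same 2-DG libraries.

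No member was called between 1× glucose and either other glucose concentration, with or without the passage block. Between 0× and 1× glucose, 0 members were called by edgeR, with 2 of all genes (0.0118%) called and 306 at an unadjusted p under 0.05. The log2 fold changes were −0.08 for *T/Bra*, −0.12 for *Sox2*, −0.18 for *Nkx1-2*, −0.05 for *Sp5* and −0.11 for *Sp8*, each with an adjusted p of 1. The 95% interval ran from −0.84 to 0.69 for *T/Bra* and from −1.43 to 1.07 for *Nkx1-2*, which leaves room for a difference in either direction. With the block, 0.0177% of all genes and 0 members were called in 0× glucose. *T/Bra* was then at −0.09 (adjusted p = 0.92).

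In 3× glucose 0 members and 0 of all genes (0%) were called, with or without the block, and 178 genes had an unadjusted p under 0.05 without it. All 5 members were higher in 3× than in 1× glucose in 3 of 3 passages, by 0.12 for *T/Bra*, 0.16 for *Sox2*, 0.19 for *Nkx1-2*, 0.21 for *Sp5* and 0.28 for *Sp8* on the log2 scale. With the block the values were 0.14 for *T/Bra* (standard error 0.21), 0.21 for *Sox2* (0.08) and 0.25 for *Nkx1-2* (0.15). They were 0.21 for *Sp5* (standard error 0.19) and 0.31 for *Sp8* (0.15). Of all genes tested, 17.3% were higher in 3 of 3 passages, and the 5 members were read in the same libraries. *Sp8* had 118, 46.6 and 49.5 CPM in 0× glucose, 121, 50 and 60.4 CPM in 1× glucose and 138, 66.4 and 76 CPM in 3× glucose, in passages 13, 15 and 16. In 12 of the 15 sets of 1 member in 1 passage, the level went up from 0× to 1× to 3× glucose, as it did in 20.9% of such sets over all genes tested, and the 15 sets come from the same 9 libraries. The differences between glucose groups within a passage did not exceed 0.67 on the log2 scale (*Nkx1-2*, passage 16).

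In the 9 glucose libraries the range between the means of the 3 passages was 0.62 (*Sp5*) to 1.51 (*Nkx1-2*) on the log2 scale, and for each member it was wider than any range between glucose groups within a passage. Passage 13 was compared with the mean of passages 15 and 16 over all treatments, and 4 of the 5 members were higher in passage 13, where 46.1% of all genes were called and 23.3% were called higher. *Sox2* was 2.52-fold higher (log2 fold change 1.33, standard error 0.05, adjusted p = 1.78e-07) and *Nkx1-2* 2.46-fold higher (1.30, standard error 0.11, adjusted p = 8.17e-06). *Sp8* was 1.95-fold higher (0.96, standard error 0.11, adjusted p = 5.01e-05). *T/Bra* was 1.55-fold higher (0.63, standard error 0.16, adjusted p = 0.00814), and its adjusted p was 0.0515 without 1× glucose replicate 1. This holds for the mean over treatments, and in 2-DG itself *T/Bra* was lowest in passage 13, at 64.6 CPM against 67.1 and 96.1. *Sp5* was at 0.16 (standard error 0.14, adjusted p = 0.404), but it was called at 0.38 in the 9 libraries without 2-DG (adjusted p = 0.000443).

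Passages 16 and 15 were closer, with 4.2% of all genes and 0 members called by edgeR. *Sox2* and *Sp5* had an unadjusted p under 0.05, as 3633 of the 16966 genes tested did. The member with the largest difference was *Sp5*, at 0.58 (standard error 0.17, adjusted p = 0.0818), and without 2-DG replicate 1 *T/Bra* (0.25), *Sp5* (0.57) and *Sp8* (0.27) were called. The share of all genes called without that library was not taken. Of the variation in log2 CPM over the 12 libraries, the treatment accounted for 74.9% in *T/Bra* and 14.8% in *Sox2*, and the passage for 14.1% and 83.8%. In *Nkx1-2* the passage accounted for 65.3%, in *Sp8* for 76.1% and in *Sp5* for 33.4%. The labels give the passage, and the growth of the cells on separate days that may go with it cannot be told apart from it.

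The levels of *T/Bra* and *Sox2* were then set against each other within each library, as a description with no test. In the 9 glucose libraries *T/Bra* had 2.63 to 4.62 times as many CPM as *Sox2*. In 2-DG the ratio was 0.413, 0.904 and 1.49 in passages 13, 15 and 16. Each 2-DG library lay below each glucose library, and in passages 13 and 15 the order of the pair turned. On the log2 scale the ratio of *Nkx1-2* to *Sox2* was 0.55 to 1.10 in the glucose libraries and −0.75, −0.57 and −0.06 in 2-DG. The ratio of *T/Bra* to *Nkx1-2* within a passage was also lower in 2-DG, for example 0.44 in 1× glucose and −0.52 in 2-DG in passage 13. These are bulk ratios and say nothing of whether single cells held both transcripts.

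**Figure D3:**
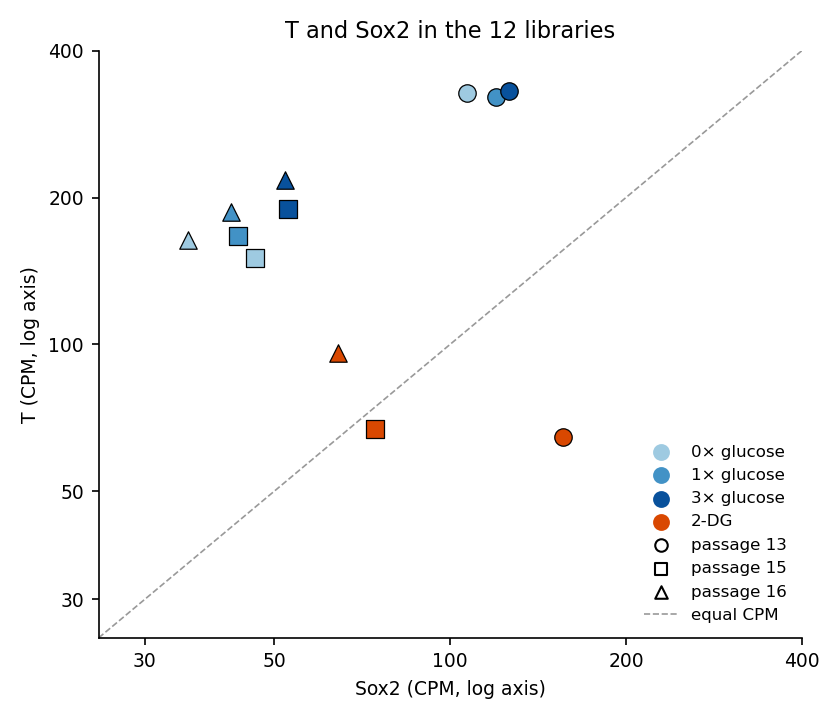
*T/Bra* against *Sox2* in the 12 libraries (TMM-scaled CPM, both axes logarithmic), with colour for the treatment, symbol for the passage and a dashed line where both have equal CPM. The 9 glucose libraries lie above the line, at ratios of 2.63 to 4.62, and the 3 libraries of 2-DG lie near or below it, at 0.413 to 1.49.

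The other transcription factors and signals of the tail bud differed in both directions. Counts in the lists that follow stand against 8.51% of all genes called lower and 9.12% called higher without the block, and 41.3% called in either direction with it. Of 12 further tail bud transcription factors, 2 were called lower in 2-DG than in 1× glucose and 0 higher, with a median log2 fold change of −0.58 against 0.00 over all genes. *Mixl1*, a homeobox gene of the primitive streak, fell from 3.63 to 6.94 CPM in 1× glucose to 0.272 to 0.586 CPM in 2-DG (log2 fold change −3.89, adjusted p = 0.00032). *Evx1*, a homeobox gene of the posterior streak, fell from 37 to 93.6 CPM to 6.68 to 16 CPM (−2.59, adjusted p = 0.00812). *Tbx6*, the T-box gene of presomitic mesoderm and the most abundant of the others, was at −0.64 (adjusted p = 0.0714), and it was called with the block at −0.67 (adjusted p = 0.00204) and by DESeq2 (adjusted p = 0.0188). With the block 7 of the 12, *Tbx6* among them, were called lower and 2, *Cdx1* and *Hes3*, were called higher.

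Of 12 signaling genes of the tail bud, 4 were called lower and 1 higher, with a median of −0.37. *Wnt3a*, the Wnt ligand of the tail bud, fell from 35.3 to 90.8 CPM in 1× glucose to 6.51 to 11.8 CPM in 2-DG (−2.72, adjusted p = 0.00634). *Fgf17*, an FGF ligand, fell from 17.8 to 48.3 CPM to 3.98 to 4.9 CPM (−2.74, adjusted p = 0.00572). In neither gene did the groups overlap, and the share of all genes without overlap was not taken. *Cyp26a1*, which encodes a retinoic acid-degrading enzyme, fell by 1.44 on the log2 scale (adjusted p = 0.028), a call lost when 1× glucose replicate 1 or either of 2-DG replicates 1 and 2 was left out (highest adjusted p 0.0947). *Wnt5b* was the other gene called lower. *Wnt3*, a Wnt ligand of the early streak, rose from 0.71 to 1.15 CPM to 1.42 to 2.43 CPM (0.94, adjusted p = 0.0331), and this call held in only 1 of the 6 fits that left out 1 library, that without 2-DG replicate 2 (highest adjusted p 0.12, without 2-DG replicate 1). *Rspo3*, which amplifies Wnt signals, was at −0.31 (adjusted p = 0.153). With each gene represented by its most abundant transcript, *Wnt3a* and *Fgf17* kept their calls, and *Cyp26a1* (adjusted p = 0.0892) and *Wnt3* (adjusted p = 0.115) lost theirs.

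Among 12 genes that Wnt/β-catenin signaling activates in many tissues, 2 were called lower and 0 higher, with a median of −0.36. *Nkd2*, a feedback inhibitor, fell by 1.18 (adjusted p = 0.0043) and *Tcf7*, a TCF/LEF factor, by 0.36 (adjusted p = 0.0153). The call of *Tcf7* was lost without 2-DG replicate 1 (adjusted p = 0.0596) or 2-DG replicate 2 (adjusted p = 0.0554), and the list then had 1 call. *Lef1* was at −0.42 (adjusted p = 0.493) and at −0.46 with the block (adjusted p = 0.00901), where 6 genes of the list were called lower and 1 higher. These calls depend on the transcripts counted, since with the most abundant transcript alone *Nkd2* (−1.19, adjusted p = 0.11) and *Tcf7* (−0.66, adjusted p = 0.256) were not called and *Lef1* was, at −1.77 (adjusted p = 0.0415). Of 12 presomitic mesoderm genes 1 was called lower, *Hes7* of the segmentation clock at −0.74 (adjusted p = 0.00508), and 0 higher, with a median of −0.29. The Notch ligand gene *Dll1* was at −0.03 (adjusted p = 0.939). With the block 6 of the 12 were called lower and 0 higher. Of these 6, *Tbx6* and *Msgn1* are also counted in the list of tail bud transcription factors.

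Of 12 genes of neural progenitors, cells that also have *Sox2*, 4 were called higher and 1 lower, with a median of 0.52. *Irx3*, a homeobox gene of the neural plate, rose from 8.79 to 16.2 CPM in 1× glucose to 31.6 to 64.1 CPM in 2-DG (1.90, adjusted p = 0.00492), and *Irx5* (1.78, adjusted p = 0.000837) was also called higher. *Sox1*, the paralog of *Sox2* in neural cells, rose from 4.08 to 7.86 CPM to 14.4 to 29.2 CPM (1.84, adjusted p = 0.0185). It lost its call when 2-DG replicate 1 or either of 1× glucose replicates 2 and 3 was left out (highest adjusted p 0.0733). *Pax6* (1.29, adjusted p = 0.0464) kept its call only without 2-DG replicate 3 when 1 library was left out (highest adjusted p 0.181, without 2-DG replicate 1). *Nkx6-1*, a homeobox gene of the ventral neural tube, was called lower from 0.637 to 1 CPM to 0.205 to 0.409 CPM (−1.43, adjusted p = 0.00516), and *Hes5* was at 0.01 (adjusted p = 0.987). With the most abundant transcript alone, *Irx3* (1.74, adjusted p = 0.0745), *Sox1* (1.84, adjusted p = 0.0735) and *Pax6* (1.93, adjusted p = 0.0984) were not called, and 1 gene of the list was called higher. Of the 18 tested paralogs of the members among Sp, SoxB1, Nkx1 and T-box genes, *Sox1* was the only one called, and the median was 0.04. With the block 3 paralogs were called higher and 4 lower.

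**Figure D4:**
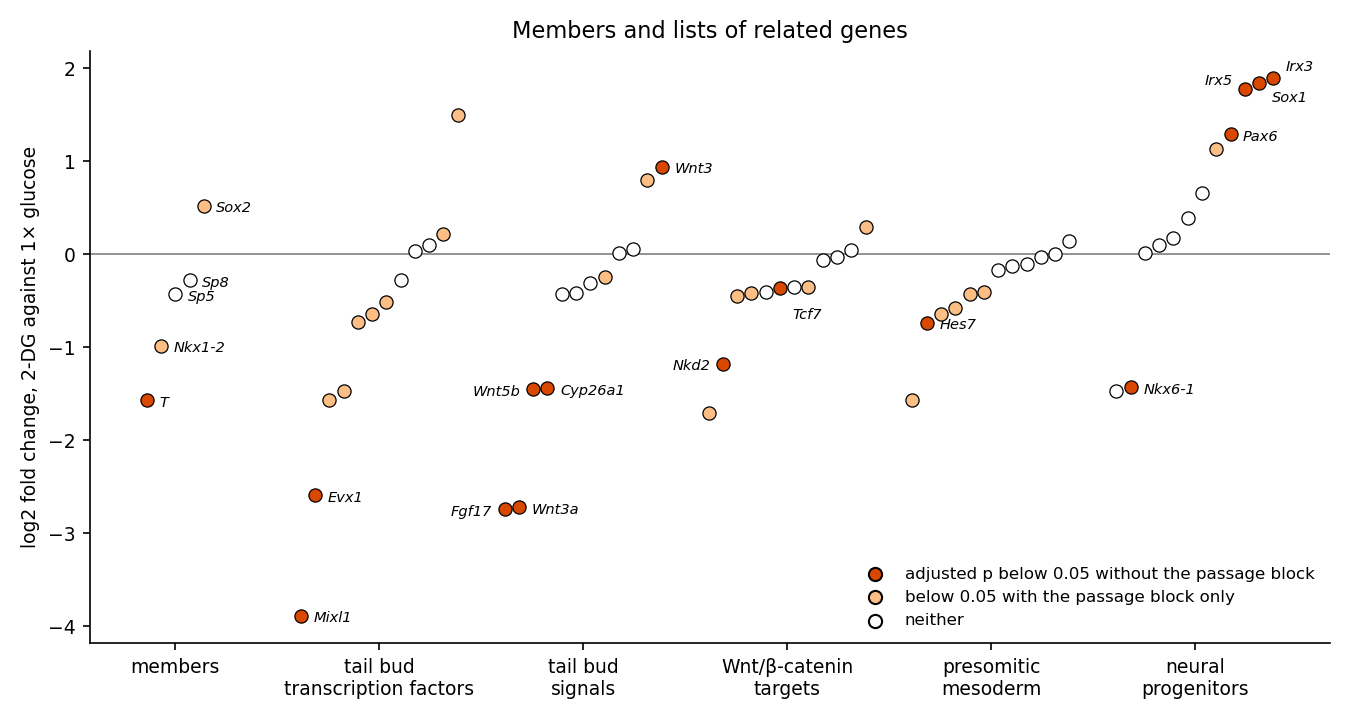
Log2 fold change between 2-DG and 1× glucose of the 5 members and of the genes of 5 lists, each point a gene, in order within its list. Filled orange points passed the test (adjusted p under 0.05) without the passage block, pale points only with it, and names are given for the members and the genes called without it. The lowest value is *Mixl1* at −3.89 and the highest is *Irx3* at 1.90.

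Cells other than tail bud progenitors can hold the same transcripts, so their markers were read beside the members. The summed level of 6 neural markers was 83.1 to 153 CPM in 2-DG and 44.1 to 77.9 CPM in 1× glucose, highest in passage 13 in both, as *Sox2* was. The 6 pluripotency markers summed to 53.9 to 66.2 CPM in 2-DG and 35.3 to 49.8 CPM in 1× glucose, with 0 of 6 called. With the block *Esrrb*, *Nanog* and *Pou5f1* were called higher and *Tdgf1* lower. Definitive endoderm markers summed to 32.8 to 97.8 CPM in 2-DG and 56 to 223 CPM in 1× glucose, with 1 of 6 called, *Cxcr4*, lower, and with the block *Foxa2* and *Sox17* were also called lower and *Foxa1* higher. Markers of the node and notochord, where *T/Bra* is also active, summed to 8.28 to 9.66 CPM in 2-DG and 6.87 to 9.44 CPM in 1× glucose. Of these 6, *Nog* and *Noto* were called lower and *Chrd* higher, and the block added *Foxa2*, lower. *Noto* was scarce in both groups, with 0 counts in each 2-DG library and 8 to 15 counts in 1× glucose. Endothelial and blood markers summed to 1.49 to 1.67 CPM in 2-DG and 2.09 to 9.46 CPM in 1× glucose, with *Gata1* at or below 3 counts in all libraries, and 0 of the 5 tested were called, whereas with the block *Cdh5*, *Kdr* and *Tal1* were called lower. Germ cell markers summed to 6.02 to 8.76 CPM and 4.28 to 6.42 CPM, with 1 of 5 tested called, *Tfap2c*, higher, and the block added *Prdm1*, higher, and *Prdm14*, lower. The 6 markers of the tail bud and its progenitors, 3 of them members, summed to 366 to 564 CPM in 2-DG and 519 to 1220 CPM in 1× glucose. Some of these sums were carried by 1 or 2 genes, so they are not levels of a cell type. In 2-DG *Pou5f1* had a mean of 48.8 CPM, and the next pluripotency marker, *Nanog*, had 4.59 CPM. *Chrd* had 7.51 CPM, with *Foxj1* next of the node and notochord markers at 0.475 CPM. Among endoderm markers *Cxcr4* (26.7 CPM) and *Cer1* (25.8 CPM) stood above *Hhex*, the next, at 4.61 CPM. Among neural markers the mean of *Irx3* went from 11.6 CPM in 1× glucose to 43.5 CPM in 2-DG, and that of *Sox1* from 5.58 to 19.9 CPM. *Pax6* went from 3.77 to 9.24 CPM and *Hes5* from 35.4 to 35.6 CPM. *Olig2* and *Nkx6-1*, with means under 1 CPM, were lower in 2-DG. The part of these cell types in the members' levels was not tested.

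The genes most like each member over the 12 libraries were found by Pearson's r of log2 CPM over all 16966 tested genes. The libraries share treatments and passages and fall into clusters by both, so r describes this layout and no p is given. *T/Bra* was most like *Il17rd* (r = 0.997), an antagonist of FGF signaling, *Tmprss2* (0.995), a protease, and *Wnt3a* (0.995), and least like *Trabd2b* (−0.989). *Sox2* was most like *Mfng* (0.991), which encodes a Notch-modifying enzyme, and also like *Slc2a1* (0.986), a glucose transporter, and least like the nucleoporin gene *Nup205* (−0.991). *Nkx1-2* was most like the caudal homeobox gene *Cdx2* (0.997), *Chd3* and *Smim3* (0.989 each), and least like *Chrnb4* (−0.982). *Sp5* was most like *Lrp8* (0.959), *Ripk4* (0.957) and *Fgf3* (0.951), an FGF ligand, and least like *Efnb1* (−0.945). *Sp8* was most like *Mycl* (0.984), *Smagp* (0.982) and *Ripk3* (0.980), and least like *Chrna3* (−0.978). With each passage mean subtracted, r was 0.997 for *T/Bra* with *Il17rd*, 0.993 for *Nkx1-2* with *Cdx2*, 0.954 for *Sox2* with *Mfng*, 0.968 for *Sp5* with *Lrp8* and 0.936 for *Sp8* with *Mycl*.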

How the data were processed

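PolyA RNA was sequenced in 12 libraries. For each, the authors deposited estimated counts per RefSeq transcript, as StringTie gives them after alignment with HISAT2. The submitters' processing notes also name Trim Galore, SAMtools, Picard and the build mm10, and versions and the strand setting are not given in the sources used here. All deposited estimated counts were whole numbers. The counts of 120312 transcripts were summed per gene through the RefSeq table of GRCm38.p6. Over genes with a mean of at least 10 counts, any pair of libraries shared at most 9.67% of its values.

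All 4 groups entered 1 fit of edgeR 4.0.16 under R 4.3.3 (TMM, filterByExpr, glmQLFit and glmQLFTest), two-sided, with Benjamini-Hochberg adjustment over 16966 genes and a threshold of 0.05. A gene at no more than 3 counts in each library of a group was taken as at the detection floor. With 3 libraries against 3, an exact permutation test cannot give a two-sided p under 0.1. By the labels, the replicates of a group differ in ES cell passage, and the passage pairs the groups. Deviations from group means correlated at 0.0963 to 0.623 where 2 libraries had the same passage (18 pairs) and at −0.44 to 0.191 where they had not (36 pairs). The passage entered as a block only as an alternative. Passages were compared in a fit of group and passage, and the 2-DG effect between passages by an interaction test with 2 degrees of freedom, whose spread comes from the glucose groups. P-values measure the spread between these libraries.

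The members and lists were chosen with earlier results of these data known. From each list, up to 2 called genes at each end and the most abundant gene not called are named, and for each member the 3 genes most alike and the 1 least alike. For *Sox2*, 1 of the 3 is not reported here. *Irx5*, *Wnt5b*, *Cdx1*, *Hes3* and the called marker genes fall outside this rule and were named after their values were seen. Promoter motifs were searched as exact letters on both strands. Alternatives were other filters and size factors, DESeq2 1.42.0, each gene's most abundant transcript, only the groups compared, the passage block and leaving out each library. Leaving out passage 13 and the interaction test were added after the data were seen. The authors also deposited 3 tables of DESeq2 fold changes and p-values, which were not used.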

Additional observations from a re-analysis of the deposited data

Results flagged for a closer look

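For 3 of the 5 members, the difference of 2-DG from the 3 glucose groups passed an interaction test between ES cell passages, with 2 degrees of freedom, that was chosen after seeing the data. Each adjusted p is that of this test and not of the single value beside it. For *T/Bra* the effect in passage 13 minus the mean effect in passages 15 and 16 was −1.19 on the log2 scale (adjusted p = 0.00217 in the interaction test, edgeR's quasi-likelihood test). For *Sp5* it was −1.01 (adjusted p = 0.0071, same test) and for *Sp8* −0.71 (adjusted p = 0.0197, same test). In passage 13 all 3 genes were lower in 2-DG than in each glucose group, whereas in passage 16 among them this held for *T/Bra* alone, and *Sp5* and *Sp8* lay inside the range of the glucose groups. Each value rests on 1 library of 2-DG per passage, the spread was estimated from the 9 glucose libraries alone, and the scatter of single 2-DG libraries cannot be told apart from a difference between passages. Groups of 3 are too small for a test of single outlying libraries.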

How the results depend on the processing

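*T/Bra* was lower in 2-DG under each alternative run in both comparisons. Represented by its most abundant transcript alone it kept its value but missed the threshold against 1× glucose (−1.57, adjusted p = 0.0554), against 0× glucose (−1.49, 0.059), between passages (0.61, 0.0908) and in the interaction test (−1.20, 0.0621), and with that setting 0 members were called in both 2-DG comparisons and in the interaction test, where *Sp5* was at −1.02 and *Sp8* at −0.91. *Sp8* turned with that setting to 0.34 against 0× glucose and to −0.14 in 3× glucose. With the passage as a replicate block, 3 members were called in each 2-DG comparison, since *Sox2* (0.58 and 0.69) and *Nkx1-2* (−0.84 and −0.63) were added, and likewise with DESeq2 and the block (*Sox2* 0.58 and 0.68, *Nkx1-2* −0.82 and −0.61, 3 members each). With the block in edgeR, 41.3% of all genes were called against 1× glucose and 43.1% against 0× glucose. The block changed no other call of a member. Without the libraries of passage 13, 3 members were called against 1× glucose (*Sox2* 0.70, *Nkx1-2* −0.57) and 2 against 0× glucose (*Sox2* 0.76), and values turned for *Sp8* (0.06 and 0.26) and for *Sp5* against 0× glucose (0.03). In the 9 libraries without 2-DG, *Sp5* was called between passage 13 and the others (0.38) and between passages 16 and 15 (0.49), the 1 member called there. Without a filter on low counts the interaction of *Sp8* missed the threshold (−0.73), and *Hes5* was at −0.01. The cause of these changes was not tested. The share of all genes called was taken only for the main fits and for the block in edgeR. Counts of members under the other alternatives, leaving out 1 library included, stand without that share.

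Fits between treatment groups with 1 library left out had no block, so each also changed the balance of passages between the groups. Leaving out 1 library at a time, values against 1× glucose ran from −1.77 to −1.22 for *T/Bra* and −0.52 to 0.20 for *Sp8*, and against 0× glucose from −1.69 to −1.05 and −0.40 to 0.41, with 0 to 1 member called in each. Between 0× and 1× glucose they ran from −0.53 to 0.27 for *T/Bra*, −0.75 to 0.56 for *Sox2*, −0.97 to 0.52 for *Nkx1-2*, −0.27 to 0.13 for *Sp5* and −0.69 to 0.37 for *Sp8*, and between 3× and 1× glucose from −0.16 to 0.48 for *T/Bra*, −0.40 to 0.85 for *Sox2*, −0.33 to 0.88 for *Nkx1-2* and −0.12 to 0.76 for *Sp8*. For passage 13 they ran from 0.48 to 0.89 for *T/Bra* and 0.01 to 0.38 for *Sp5*, and between passages 16 and 15 from 0.05 to 0.37 for *T/Bra*, 0.39 to 0.68 for *Sp5* and 0.12 to 0.37 for *Sp8*, with 0 to 3 members called. The interaction ran from −0.88 to −0.63 for *Nkx1-2* and −0.82 to −0.64 for *Sp8*. *Dll1* ran from −0.20 to 0.15 against 1× glucose and −0.30 to 0.04 against 0× glucose, and *Hes5* from −0.18 to 0.32 against 1× glucose. Among the members not called against 1× glucose, the narrowest 95% interval was that of *Sp5*, −1.06 to 0.20, which leaves room for a fall of more than 2-fold with 3 libraries a group and no block.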
